A study of Mus musculus with 12 samples.

Results

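The expression of 10 genes of the endoplasmic reticulum (ER) stress and ATF4 response, namely Atf4, Ddit3, Trib3, Asns, Xbp1, Hspa5, Herpud1, Dnajb9, Sesn2 and Ddit4, was followed in 2 cell types of mice subjected to renal ischemia/reperfusion injury (IRI). The genes were taken by symbol from 50433 gene rows measured in renal tubular epithelial cells (TECs) and 50434 gene rows measured in blood neutrophils (PMN), and all 10 had a row in both. Wild-type male C57BL/6J mice of 8 to 12 weeks had both renal pedicles clamped for 35 minutes, so that every group carried the injury and no sham-operated mice were analysed here. Mice received either glutamine, given intravenously at 0.5 g/kg as the dipeptide alanyl-glutamine, or physiological saline as vehicle, and cells were collected at 24 hours. TECs were sorted from kidney suspensions as CD45-negative and Prominin-1-positive cells and gave 3 vehicle libraries, numbered replicates 3, 4 and 5, and 3 glutamine libraries, replicates 1, 2 and 3. PMN came from peripheral blood, with 3 vehicle and 3 glutamine libraries, called replicates 1, 2 and 3 here as names alone, since their labels give no replicate number. The sort of the PMN is not described in the sources used here, and neither is the time at which their donors received glutamine. For the mice of the TECs the sources differ on the time after reperfusion, so none is given. The labels do not say that each library came from a separate mouse, so p-values measure the spread between these libraries only, which may be technical.

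Unfolded protein in the ER lumen is sensed by the kinase and endonuclease IRE1, by the kinase PERK and by the membrane-bound factor ATF6, which together drive the unfolded protein response (UPR). PERK phosphorylates the initiation factor eIF2alpha, as does GCN2 when amino acids run short. Bulk translation then slows while the mRNA of Atf4 is translated more, and the ATF4 protein switches on genes of amino acid uptake, amino acid synthesis and stress control. IRE1 splices the mRNA of Xbp1, and XBP1 and ATF6 raise chaperones and the machinery of ER-associated degradation. The response is known to be switched on in the tubular epithelium by ischemia. Glutamine is the amino group donor of asparagine synthetase, which the ATF4 target gene Asns encodes.

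The TEC libraries held 5397370 to 10223461 counts and the PMN libraries 20225246 to 21878446 counts. Counts per 1e6 counts (CPM) given here are scaled by edgeR's TMM method. TECs expressed Prom1, the gene of Prominin-1, at 64.6 to 83.5 CPM and the epithelial gene Cdh16 at 226 to 417 CPM. The 18 tubular markers summed to 7793 to 10863 CPM with vehicle and 7743 to 9635 CPM with glutamine, and 3 of them, named after their values were seen, did not overlap between the groups. Havcr1, the injury marker KIM-1, was at 106 to 793 CPM with vehicle and 26.2 to 94.1 CPM with glutamine, Pax8 at 88.9 to 104 and 55.6 to 77.0 CPM, and Slc12a1, the transporter of the thick ascending limb, at 38.01 to 45.0 and 53.0 to 143 CPM. Their part in the values below was not tested. In TECs the platelet and erythroid markers summed to 312 to 2604 CPM, highest in glutamine replicate 2 and vehicle replicate 5, the endothelial markers to 309 to 529 CPM and the neutrophil markers to 103 to 257 CPM, with overlapping groups in these 3 lists. The plasma cell list did not overlap, at 22.5 to 31.5 CPM with vehicle and 37.8 to 46.7 CPM with glutamine, nearly all from Sdc1, which epithelial cells also express. The monocyte and macrophage markers summed to 29.2 to 76.3 CPM, and of the 7 tested, Lyz2 and Ms4a7 were higher with glutamine without overlap, Lyz2 at 1.12 to 2.56 and 3.95 to 12.5 CPM and Ms4a7 at 0.31 to 0.89 and 1.68 to 2.41 CPM. Counts assigned to predicted genes, those whose symbol begins with Gm, made up 16.1% to 21.7% of the vehicle TEC libraries and 24.9% to 29.4% of the glutamine TEC libraries, without overlap, and 2.43% to 3.20% of the PMN libraries. In PMN, 12 neutrophil marker genes such as S100a8 and Csf3r summed to 24018 to 74390 CPM per library, and 10 monocyte and macrophage markers to 5664 to 11903 CPM. Of the latter, Lyz2 held the most in every library, at 2338 to 5017 CPM, followed by C1qb at 585 to 3394 CPM and C1qa at 287 to 2572 CPM. Individual PMN libraries stood apart. The tubular gene Umod was at 1025 CPM in vehicle replicate 1 against at most 33.4 CPM in the other libraries, and the endothelial gene Kdr was at 619 CPM in vehicle replicate 2 and at 0 elsewhere. B cell markers summed to 0.50 to 2.64 CPM with vehicle and 20.9 to 33.4 CPM with glutamine, mostly from Cd79b, while Pax5 had 0 CPM in every PMN library. The plasma cell list summed to 10.2 to 108 CPM with vehicle and 0 to 0.10 CPM with glutamine, nearly all of it from Sdc1, while Mzb1, Derl3 and Tnfrsf17 had 0 CPM in every PMN library. The part of these differences in the values below was not tested. In 3255 of the 10130 genes tested in PMN, or 32.1%, a group held both a library under 1 CPM and a library over 20 CPM, as against 16 of 14734 genes, or 0.109%, in TECs. In such bulk libraries, fewer cells of a type and less RNA per cell cannot be told apart.

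The first question was whether glutamine changed the ER stress and ATF4 genes in TECs. Of the 10 genes, 8 had a higher and 2 a lower level with glutamine, and their median log2 fold change was 0.20 against 0.01 for all 14734 genes tested. Leaving out each library in turn gave 6 to 9 genes higher and a median from 0.15 to 0.39, with 6 higher without glutamine replicate 3 and the median of 0.39 without vehicle replicate 5. Herpud1 had the largest difference, with a mean of 144 ± 51.2 CPM in the vehicle libraries and 399 ± 291 CPM in the glutamine libraries (SD, n = 3), and Asns was the furthest in the other direction, with 20.7 ± 5.66 CPM and 12.7 ± 4.95 CPM. By edgeR's quasi-likelihood test none of the 10 genes passed the threshold of 0.05 on adjusted p, where 0% of all genes were called. None passed in limma, which called 0 of all genes, or in DESeq2, which called 246 of 12738 tested genes. At an unadjusted p under 0.05 only Herpud1 passed, 1 gene of 10, where 12.9% of all tested genes passed, 7.32% higher and 5.58% lower with glutamine. The vehicle and glutamine libraries overlapped for every one of the 10 genes, whereas among all tested genes the groups did not overlap for 9.01%, higher with glutamine, and 9.81%, lower with glutamine. With 3 libraries against 3, an exact permutation test of a single gene cannot go below p = 0.1.

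**Figure D1:**
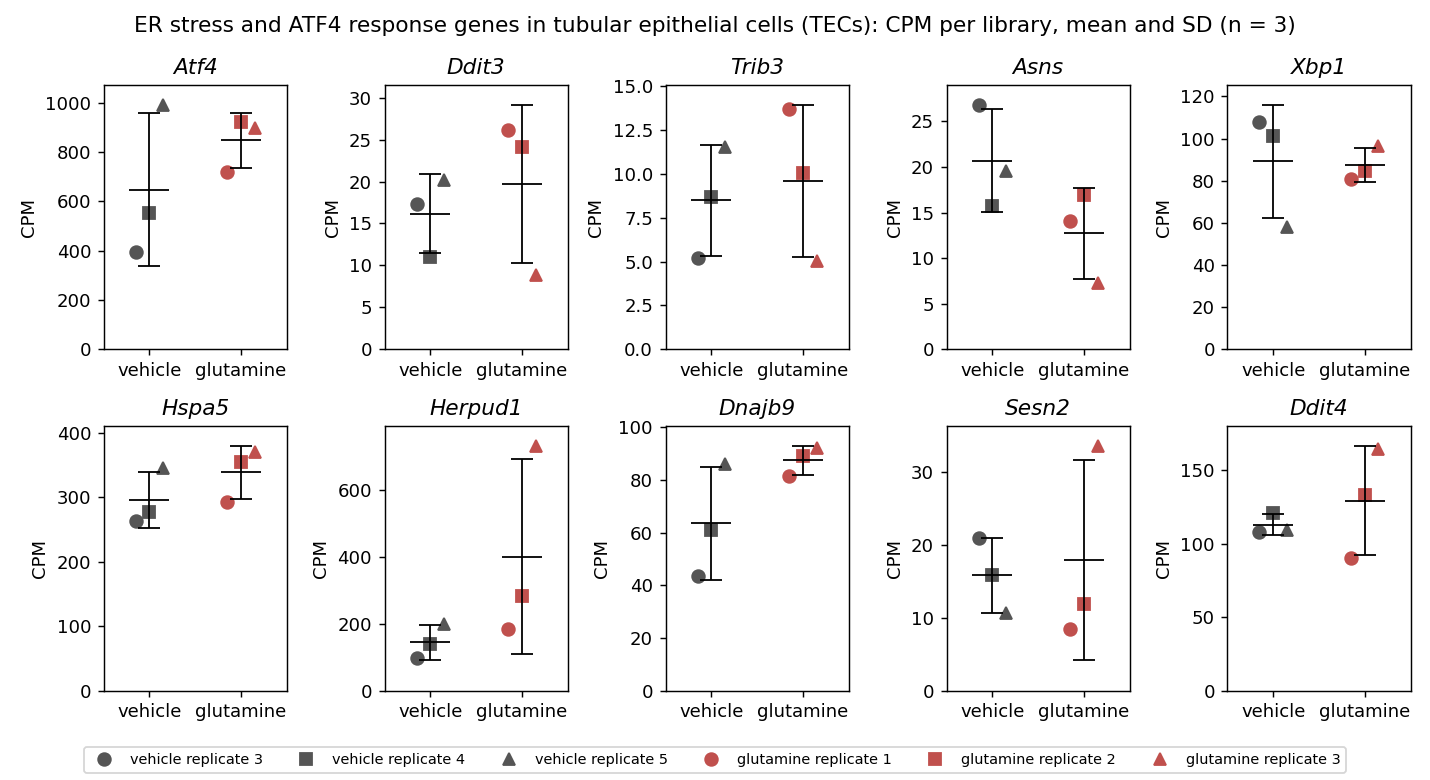
CPM of each of the 10 genes in the 3 vehicle (grey) and 3 glutamine (red) libraries of TECs, each point a library, with the mean and SD as bars on axes that start at 0. The groups overlap in every panel, and the Herpud1 level of 731 CPM in glutamine replicate 3 lies far above the other 5 libraries, which reach 282 CPM.

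Atf4 encodes the transcription factor at the centre of the response and lies on chromosome 15 from 80255184 to 80257541 (GRCm38, GENCODE M21, as for all gene positions here). Its level was 393, 554 and 992 CPM in vehicle replicates 3, 4 and 5 and 719, 923 and 899 CPM in glutamine replicates 1, 2 and 3. The highest and the lowest of the 6 libraries were both vehicle libraries, and the vehicle group spanned 2.53-fold against 1.28-fold in the glutamine group. Glutamine against vehicle gave a log2 fold change of 0.39 with a standard error of 0.29 (adjusted p = 0.607 in edgeR's quasi-likelihood test). It was 0.84 without vehicle replicate 5 and 0.13 without vehicle replicate 3, so that the size of the difference rested on which vehicle library was counted.

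Ddit3, the gene of the pro-apoptotic factor CHOP, lies on chromosome 10 from 127290774 to 127296288. GENCODE M21 holds 2 gene models of this name, which share exon bases on the same strand. The position given is that of the model with more exonic sequence. Ddit3 was at 17.4, 11.02 and 20.2 CPM with vehicle and at 26.2, 24.1 and 8.88 CPM with glutamine. Glutamine replicates 1 and 2 were above all vehicle libraries and glutamine replicate 3 was below all of them. The log2 fold change of 0.28 had a standard error of 0.41, and it ran from 0.011 without glutamine replicate 1 to 0.64 without glutamine replicate 3. Ddit3 shares exon bases with Mars, the gene of methionyl-tRNA synthetase, and with the predicted gene Gm4189, both on the opposite strand. Whether the counting used strand is not stated in the sources used here, so reads from the shared bases cannot be told apart.

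Xbp1, on chromosome 11 from 5520659 to 5525893, encodes the factor made from IRE1-spliced mRNA. Counts per gene add the spliced and the unspliced form, and nothing can be said here about splicing. The level was 108, 101 and 58.2 CPM with vehicle and 81.0, 84.8 and 96.6 CPM with glutamine. The glutamine libraries lay inside the range of the vehicle libraries, with a log2 fold change of -0.03 (standard error 0.25). This sign turned with the setting, to 0.02 with limma and between -0.26 and 0.13 when each library was left out in turn.

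Among the targets of ATF4, Asns lies on chromosome 6 from 7675169 to 7693254, on the minus strand. A copy of the ATF4 element TGATGNAA, with its first base 23 bases before the RefSeq transcription start, is the reason for showing this stretch at chr6:7693214-7693243 (RefSeq sequence, GRCm38.p6, minus strand, 5′ to 3′), where capitals mark the match.
Asns: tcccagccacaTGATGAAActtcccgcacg
The RefSeq start lies inside the GENCODE gene given above, and the base just before it is 7693210, so that this stretch is upstream of the RefSeq start and within the GENCODE gene. Of the 250 bases before the RefSeq start of 32851 genes, 3.45% hold this element on either strand, and among the 10 genes it was found for Asns and Herpud1. A match is a sequence of letters and not a measured binding site. Asns was at 26.8, 15.7 and 19.6 CPM with vehicle and at 14.1, 16.9 and 7.24 CPM with glutamine. Glutamine replicates 1 and 3 were below every vehicle library, while glutamine replicate 2 was above vehicle replicate 4. The log2 fold change was -0.71 with a standard error of 0.36 (adjusted p = 0.435 in edgeR's quasi-likelihood test), and it lay between -0.96 and -0.42 when each library was left out in turn.

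Trib3 encodes a pseudokinase induced by ATF4 and CHOP and lies on chromosome 2 from 152337422 to 152344032. It was at 5.23, 8.69 and 11.5 CPM with vehicle and at 13.7, 10.04 and 5.04 CPM with glutamine. The lowest and the highest library were both from the glutamine group. Its log2 fold change of 0.18 (standard error 0.45) turned to -0.08 without vehicle replicate 3 and to -0.19 without glutamine replicate 1.

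Sesn2 and Ddit4 encode stress-induced inhibitors of the growth-promoting kinase complex mTORC1. Sesn2, on chromosome 4 from 132492032 to 132510501, was at 21.01, 15.9 and 10.7 CPM with vehicle and at 8.41, 11.9 and 33.7 CPM with glutamine. Glutamine replicate 3 was the highest library and glutamine replicate 1 the lowest, and the log2 fold change of 0.19 (standard error 0.48) became -0.66 without glutamine replicate 3. Ddit4, on chromosome 10 from 59949669 to 59951834, was at 108, 121 and 109 CPM with vehicle and at 90.5, 133 and 165 CPM with glutamine. The vehicle libraries were close together, spanning 1.12-fold, and the glutamine libraries lay on both sides of them. Its log2 fold change of 0.20 (standard error 0.23) was -0.02 without glutamine replicate 3 and 0.40 without glutamine replicate 1.

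Of the genes acting in the ER itself, Hspa5 encodes BiP, the main chaperone of the lumen, and lies on chromosome 2 from 34771970 to 34777547. It holds the ER stress element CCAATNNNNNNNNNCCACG, which the UPR factors ATF6 and XBP1 are known to use. Among the 10 genes, only Hspa5 had this match within the 250 bases searched before each RefSeq start. For that reason the stretch at chr2:34772020-34772049 (RefSeq sequence, GRCm38.p6, plus strand) is shown.
Hspa5: cttcaCCAATCGGAGGCCTCCACGacgggg
The capitals mark the element, whose first base lies 65 bases before the RefSeq start, and 0.113% of all promoters of this length hold it on either strand. The base just before that start is 34772089, so that the stretch lies upstream of the RefSeq start and within the longer GENCODE gene. A further match to the core TGACGTG was found with its first base 157 bases before the RefSeq start, a motif held by 1.65% of promoters. Hspa5 was at 264, 277 and 345 CPM with vehicle and at 292, 355 and 370 CPM with glutamine. The groups overlapped over a narrow range, each spanning about 1.3-fold, with a log2 fold change of 0.20 with a standard error of 0.19 (adjusted p = 0.690 in edgeR's quasi-likelihood test). It ran from 0.12 without vehicle replicate 3 to 0.32 without vehicle replicate 5, and was 0.034 when libraries were scaled by their totals.

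Herpud1 encodes a membrane protein of the ER-associated degradation machinery and lies on chromosome 8 from 94386438 to 94395377. The 250 bases before its RefSeq start, chr8:94386179-94386428 (GRCm38.p6, plus strand), are given whole because Herpud1 had the largest difference and holds 2 different motifs of the response.
Herpud1: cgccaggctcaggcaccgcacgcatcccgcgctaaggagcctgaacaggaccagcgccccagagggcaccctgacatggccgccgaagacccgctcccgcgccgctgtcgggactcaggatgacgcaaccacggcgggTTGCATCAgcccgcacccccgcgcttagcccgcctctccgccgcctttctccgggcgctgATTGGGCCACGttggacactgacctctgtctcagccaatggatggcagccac
The first run of capitals is the ATF4 element on the opposite strand, where it reads from the far side, with its first base 112 bases before the start. The second run is the ER stress element II (ATTGG and CCACG with 1 base between them), with its first base 52 bases before the start. Within the 250 bases searched, 0.0304% of all promoters hold it on either strand, and no other of the 10 genes does. Herpud1 was at 96.1, 138 and 198 CPM with vehicle and at 185, 282 and 731 CPM with glutamine. Glutamine replicates 2 and 3 were above all vehicle libraries, and glutamine replicate 1 was below vehicle replicate 5. The log2 fold change was 1.47 (standard error 0.49), with an unadjusted p of 0.0145 and an adjusted p of 0.278 in edgeR's quasi-likelihood test. Without glutamine replicate 3, which also had the largest share of counts in predicted genes, it was 0.69. Over all alternatives the adjusted p ranged from 0.204 to 0.631.

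Dnajb9 encodes ERdj4, a co-chaperone of BiP that is a target of XBP1, and lies on chromosome 12 from 44205559 to 44210326. It was at 43.5, 61.2 and 86.1 CPM with vehicle and at 81.4, 89.0 and 92.1 CPM with glutamine. Glutamine replicates 2 and 3 were above every vehicle library, and the glutamine libraries spanned 1.13-fold against 1.98-fold in the vehicle group. This gave a log2 fold change of 0.46 with a standard error of 0.25 (adjusted p = 0.467 in edgeR's quasi-likelihood test), and it was 0.74 without vehicle replicate 5 and 0.24 without vehicle replicate 3. A stretch of 156 bases of Dnajb9 matches the transcript of Gm6568 at 98.1% identity, so the Dnajb9 count is uncertain to that extent. Gm6568 itself had no row among the genes measured in TECs or PMN, so its level is not known here. Dnajb9 also shares exon bases with Mir5627 on the opposite strand.

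**Figure D2:**
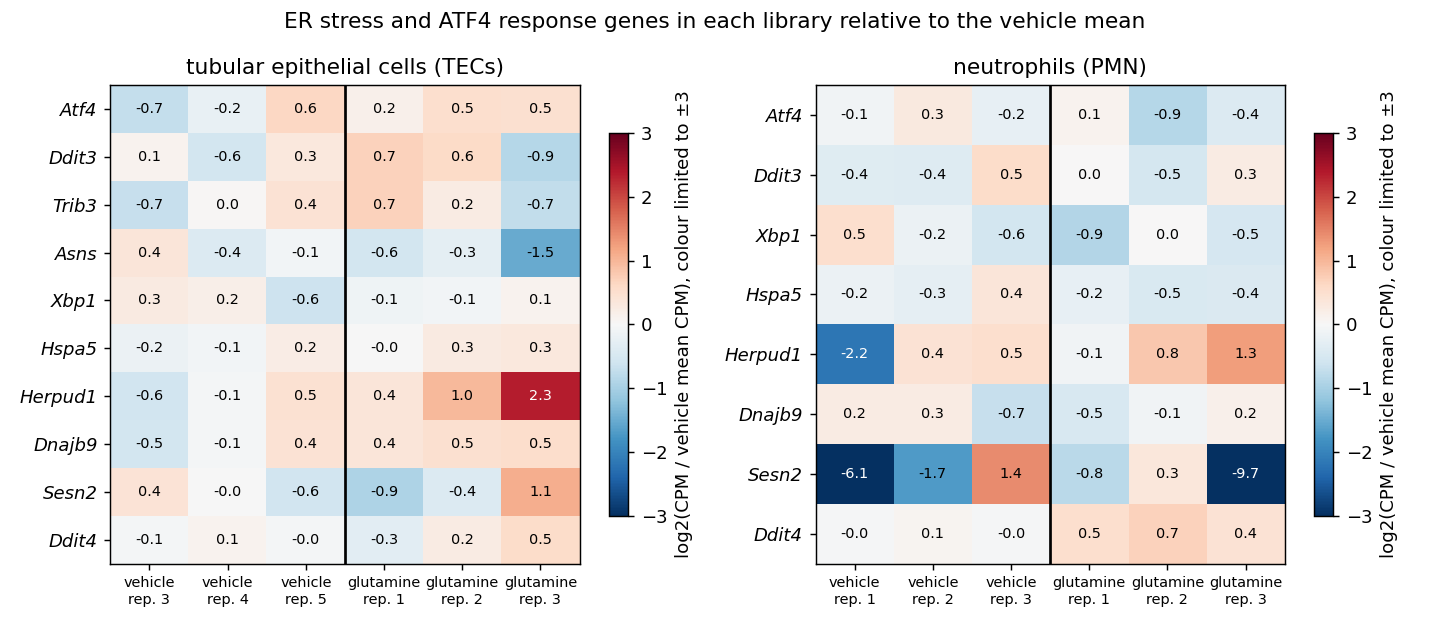
The log2 ratio of each library's CPM to the vehicle mean, for TECs (left, 10 genes) and PMN (right, the 8 genes with counts), with libraries in columns and the colour limited to 3 in either direction. Within the TEC vehicle group, replicate 5 is highest for 6 of the 10 genes and replicate 3 is lowest for 6, and in PMN the row of Sesn2 runs from -9.67 to 1.42.

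The vehicle libraries of TECs differed among themselves. Vehicle replicate 5 was the highest of its group for 6 genes, namely Atf4, Ddit3, Trib3, Hspa5, Herpud1 and Dnajb9, and vehicle replicate 3 was the lowest for 6, namely Atf4, Trib3, Hspa5, Herpud1, Dnajb9 and Ddit4. In the other direction, vehicle replicate 3 was the highest of its group for 3 genes, Asns, Xbp1 and Sesn2, and vehicle replicate 5 the lowest for 2, Xbp1 and Sesn2. The share of counts in predicted genes was likewise lowest in vehicle replicate 3, at 16.1%, and highest in vehicle replicate 5, at 21.7%, and its part in these levels was not tested. In the glutamine group, replicate 3 was the highest library for 6 genes and the lowest for 3, Ddit3, Trib3 and Asns. Glutamine replicate 1 was the lowest for 7 genes.

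Levels were compared between genes only as CPM per kilobase of the longest coding transcript. In vehicle TECs Atf4 stood first at 375 ± 180 CPM per kilobase (SD, n = 3), and its lowest library, at 228, was above the highest library of every other gene of the 10. Hspa5 at 80.5 ± 11.9, Herpud1 at 73.8 ± 26.2 and Ddit4 at 64.3 ± 4.11 CPM per kilobase followed, and Herpud1 overlapped both Hspa5 and Ddit4 in its library range, while the lowest Hspa5 library, at 71.8, was above the highest Ddit4 library, at 69.1. Every Ddit4 library was above every Xbp1 library. Xbp1 at 41.9 ± 12.7 and Dnajb9 at 25.8 ± 8.70 overlapped, as did Dnajb9 and Ddit3, the latter at 18.2 ± 5.27 CPM per kilobase, and Ddit3 and Asns. Asns at 10.3 ± 2.81, Sesn2 at 4.56 ± 1.48 and Trib3 at 4.18 ± 1.55 CPM per kilobase were the lowest, and of these 3 only Sesn2 and Trib3 overlapped.

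The remaining genes of the pathway in TECs were read from lists sorted by function, beside the same counts over all tested genes, of which 7454 were higher and 7280 lower with glutamine, 7.32% higher and 5.58% lower at an unadjusted p under 0.05, and 9.01% higher and 9.81% lower without overlap of the groups. Under the main settings, the ATF4 targets of amino acid supply and tRNA charging were the most one-sided list with over 10 genes. Of 23 tested genes, 3 were higher and 20 lower, and their median was -0.39 on the log2 scale, and none was called by edgeR's quasi-likelihood test. At an unadjusted p under 0.05, 0 were higher and 4 lower, and in 8 the groups did not overlap, all lower with glutamine. These 4 were Psat1 and Phgdh, enzymes of serine synthesis, and the leucyl- and tryptophanyl-tRNA synthetases Lars and Wars, which were named after their values were seen. Psat1 was at 128, 121 and 78.3 CPM with vehicle and at 41.0, 66.3 and 58.0 CPM with glutamine, and every glutamine library was below every vehicle library. Its log2 fold change was -0.99 with a standard error of 0.26 (adjusted p = 0.207 in edgeR's quasi-likelihood test, but 0.0340 in DESeq2's Wald test and 0.00571 in edgeR without the expression filter). Phgdh was at 23.4, 22.2 and 34.0 CPM with vehicle and at 13.3, 18.5 and 12.2 CPM with glutamine, a log2 fold change of -0.86 with a standard error of 0.29 (adjusted p = 0.272 in edgeR). Neither group of these libraries overlapped the other. Mthfd2, a mitochondrial folate enzyme, and the cystine transporter subunits Slc7a11 and Slc3a2 had log2 fold changes of -0.54, -0.41 and -0.15. Their standard errors were 0.33, 0.41 and 0.18, and their groups overlapped. Leaving out each library in turn gave -0.83 to -0.36 for Mthfd2, -0.83 to -0.14 for Slc7a11 and -0.22 to -0.038 for Slc3a2.

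The list of ATF4 partners and related transcription factors was lower in 7 and higher in 1 of 8 tested genes, with a median of -0.18. At an unadjusted p under 0.05, 0 were higher and 2 lower, Atf5 and Nfe2l1, the latter named after its values were seen. Atf5, an ATF4 target and relative, was at 175, 99.2 and 114 CPM with vehicle and at 69.8, 86.4 and 32.6 CPM with glutamine. Its groups did not overlap, with a log2 fold change of -1.05 with a standard error of 0.34 (adjusted p = 0.251 in edgeR's quasi-likelihood test and 0.00185 without the expression filter). Atf3 had a log2 fold change of -0.21, Cebpb of -0.13 and Cebpg of -0.30, all with overlapping groups. That of Cebpg ran from -0.51 without glutamine replicate 1 to -0.019 without vehicle replicate 4. The 10 tested targets of ATF4 and CHOP in stress and growth control split evenly, with 5 higher and 5 lower and a median of 0.02, and at an unadjusted p under 0.05 there were 0 higher and 2 lower, Eif4ebp1 and Chac1. Eif4ebp1, which encodes the translation repressor 4E-BP1 and was named after its values were seen, was at 124, 119 and 106 CPM with vehicle and at 74.5, 70.1 and 54.5 CPM with glutamine. Its groups did not overlap, with a log2 fold change of -0.81 and a standard error of 0.20 (adjusted p = 0.205 in edgeR's quasi-likelihood test). Tnfrsf10b, a death receptor induced by CHOP and also named after its values were seen, was the 1 gene of this list that was higher without overlap, at 73.4 to 84.8 CPM with vehicle and 92.8 to 151 CPM with glutamine, a log2 fold change of 0.49 (standard error 0.23). Chac1, an ATF4 target that degrades glutathione, was among the lower ones at 24.6 ± 3.58 CPM in the vehicle and 14.2 ± 6.54 CPM in the glutamine libraries (SD, n = 3). Its groups overlapped and differed by -0.78 on the log2 scale (standard error 0.34). The difference was -1.24 without glutamine replicate 3 and -0.58 without glutamine replicate 1.

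Among the sensors, Ern1, the gene of IRE1, was at 6.81 to 8.56 CPM with vehicle and at 5.22 to 6.47 CPM with glutamine. These ranges did not overlap, but the log2 fold change of -0.37 was no larger than its standard error of 0.37. Eif2ak3, the gene of PERK, and Atf6 had log2 fold changes of 0.00 and 0.08. Of 8 tested genes of the eIF2alpha kinases, their activator Gcn1, the factor itself and its phosphatase, 4 were higher and 4 lower, with 0 higher and 1 lower at an unadjusted p under 0.05. That gene was Eif2s1, which encodes eIF2alpha, at 32.8 to 37.4 CPM with vehicle and 18.1 to 28.1 CPM with glutamine without overlap, a log2 fold change of -0.57 (standard error 0.24). Eif2ak1, the gene of the heme-regulated kinase, did not overlap either, with a log2 fold change of -0.34 (standard error 0.20), and both were named after their values were seen. Eif2ak4, which encodes GCN2, the sensor of uncharged tRNA, was at 10.6, 10.03 and 29.5 CPM with vehicle and at 24.3, 32.3 and 28.8 CPM with glutamine. Vehicle replicate 5 was at the level of the glutamine libraries, and the log2 fold change was 0.77 (standard error 0.40). It ran from 0.50 without vehicle replicate 4 to 1.46 without vehicle replicate 5, and over all alternatives the adjusted p in the tests run ranged from 0.0726 to 0.793. Ppp1r15a, the stress-induced phosphatase subunit GADD34, had means of 54.9 ± 1.91 CPM in the vehicle and 56.5 ± 7.37 CPM in the glutamine libraries (SD, n = 3).

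The ER chaperones and folding enzymes split into 9 higher and 8 lower of 17 tested genes, with a median of 0.04 and none at an unadjusted p under 0.05, and the median turned to -0.011 without glutamine replicate 3. The groups did not overlap for 0 higher and 3 lower, Pdia6, Dnajb11 and Txndc5, which were named after their values were seen. Hsp90b1, the ER form of HSP90, had a log2 fold change of 0.20 (standard error 0.19) and Hyou1, a nucleotide exchange factor of BiP, one of 0.32 (standard error 0.25). Leaving out each library in turn gave 0.10 to 0.27 for Hsp90b1 and 0.15 to 0.45 for Hyou1. Under the other settings the lowest values were 0.033 for Hsp90b1 and 0.16 for Hyou1. Pdia4, Creld2 and Manf lay at 0.04, 0.11 and -0.09, and the BiP-associated Sdf2l1 at -0.71 with a standard error of 0.59. The genes of ER-associated degradation split into 6 higher and 6 lower, with a median of -0.02. Edem1, which hands misfolded glycoproteins to degradation, had a log2 fold change of 0.15 (standard error 0.32). Sel1l, the partner of the ubiquitin ligase HRD1, was at 53.7 to 58.4 CPM with vehicle and at 60.7 to 67.4 CPM with glutamine without overlap, a log2 fold change of 0.18 (standard error 0.19). The highest log2 fold change among these degradation genes was 0.28 (standard error 0.26) for Ubxn4, and its difference from that of Herpud1 was not tested. The ER translocon and the secretory targets of XBP1 were lower in 13 and higher in 5 of 18 tested genes, with a median of -0.33, 5 lower and 0 higher at an unadjusted p under 0.05, and 7 lower and 0 higher without overlap. None of the 18 was called by edgeR's quasi-likelihood test, which called 1 of them without the expression filter. When libraries were scaled by their totals alone, the median of all genes moved to -0.16 and that of the 10 genes to 0.03. The median of the amino acid list moved to -0.57, with 2 genes higher and 21 lower. That of the translocon list moved to -0.49, with 1 gene higher and 17 lower, so that it was then the more one-sided. The median of the chaperone list moved to -0.13, with 6 of its genes higher and 11 lower.

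**Figure D3:**
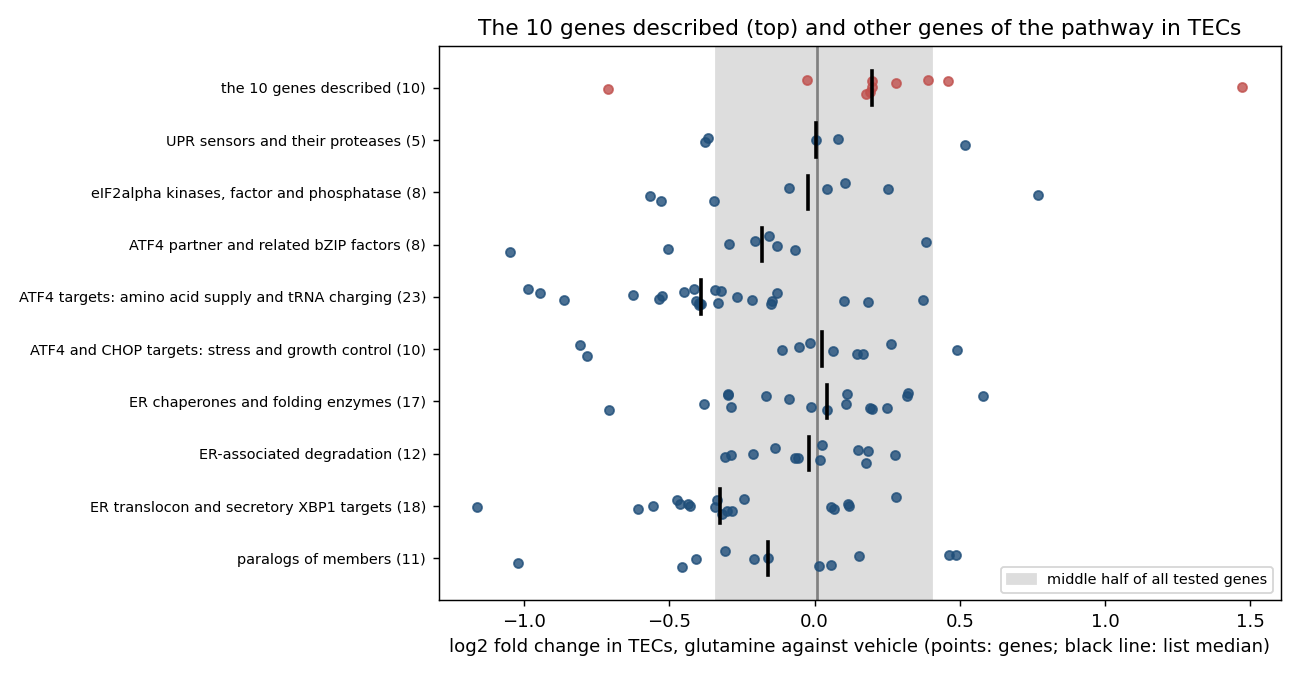
Log2 fold change, glutamine against vehicle, of each tested gene (points) in 10 lists in TECs, with the list median as a black line and the quartiles of all tested genes, from -0.34 to 0.40, as a grey band. The median is 0.20 for the 10 genes described in red and -0.39 for the 23 ATF4 targets of amino acid supply and tRNA charging.

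In PMN the same question gave a different set of values. Trib3 and Asns had 0 counts in each of the 6 libraries, which allows up to 3 counts, or 0.131 to 0.156 CPM, per library for counting error only. The other 8 genes were tested, of which 2, Herpud1 and Ddit4, were higher and 6 lower with glutamine. Their median was -0.23 on the log2 scale, against 0.00 for all 10130 genes tested. Without vehicle replicate 3 the split was 4 higher and 4 lower and the median 0.076. Leaving out each of the other libraries gave 2 or 3 genes higher and medians from -0.26 to -0.16. None of the 8 genes was called by edgeR's quasi-likelihood test, where 0% of all genes were called. None was called by limma, which called 0 of all genes, or by DESeq2, which called 309 of 11035 tested genes. At an unadjusted p under 0.05 there were 0 of the 8, where 3.33% of all tested genes passed, 2.04% higher and 1.28% lower with glutamine. The groups did not overlap for 1 gene, Ddit4, higher with glutamine, where this held for 5.87% of all tested genes, and 4.63% were lower without overlap. Every adjusted p of the 8 genes was 0.99996 in edgeR's test.

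Ddit4 was at 42.0, 46.1 and 42.1 CPM in vehicle replicates 1, 2 and 3 and at 61.2, 70.3 and 58.4 CPM in glutamine replicates 1, 2 and 3. Every glutamine library was above every vehicle library, and each group was tight, with the highest library 1.10-fold and 1.20-fold the lowest. The log2 fold change of 0.55 had a standard error of 0.75, since the model pools the spread of libraries over genes. It stayed between 0.42 and 0.60 when each library was left out in turn.

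Herpud1 was at 21.6, 131 and 137 CPM with vehicle and at 89.7, 169 and 230 CPM with glutamine. Vehicle replicate 1, the library with Umod at 1025 CPM, was far below the rest, and the log2 fold change of 0.75 (standard error 0.76) was 0.24 without it and 1.083 without vehicle replicate 3. Glutamine replicate 3, the highest, also had the lowest sum of neutrophil markers at 24018 CPM and the highest sum of monocyte and macrophage markers at 11903 CPM, and without it the log2 fold change was 0.42. The part of these markers in the value was not tested.

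Atf4 was at 257, 340 and 235 CPM with vehicle and at 296, 152 and 208 CPM with glutamine. Glutamine replicates 2 and 3 were below every vehicle library and glutamine replicate 1 was inside their range, a log2 fold change of -0.34 (standard error 0.36) that ran from -0.64 without glutamine replicate 1 to -0.18 without vehicle replicate 2. Ddit3, at 78.4, 77.9 and 148 CPM with vehicle and 102, 70.6 and 121 CPM with glutamine, differed little between the groups, with a log2 fold change of -0.05 (standard error 0.51) that turned to 0.32 without vehicle replicate 3.

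Xbp1 was at 642, 401 and 307 CPM with vehicle and at 244, 457 and 319 CPM with glutamine. The highest library was vehicle replicate 1, and the log2 fold change of -0.40 (standard error 0.38) was -0.08 without it and -0.73 without glutamine replicate 2. Hspa5 was at 1072, 1017 and 1560 CPM with vehicle and at 1029, 882 and 903 CPM with glutamine. Vehicle replicate 3 stood above the other libraries, and the log2 fold change of -0.37 (standard error 0.24) was -0.16 without it and -0.50 without vehicle replicate 2. Dnajb9 was at 126, 127 and 65.5 CPM with vehicle and at 76.7, 98.5 and 119 CPM with glutamine. Vehicle replicate 3 was the lowest library, and the log2 fold change of -0.12 (standard error 0.49) lay between -0.38 and 0.02 when each library was left out in turn.

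Sesn2 showed how uneven single genes were in these libraries. It had 12, 278 and 2308 counts with vehicle and 446, 1096 and 1 counts with glutamine, or 0.60, 12.7 and 110 CPM and 23.5, 51.7 and 0.05 CPM. Each group held both a nearly empty and a well-filled library. The log2 fold change of -0.71 had a standard error of 2.28 and became 1.91 without vehicle replicate 3.

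**Figure D4:**
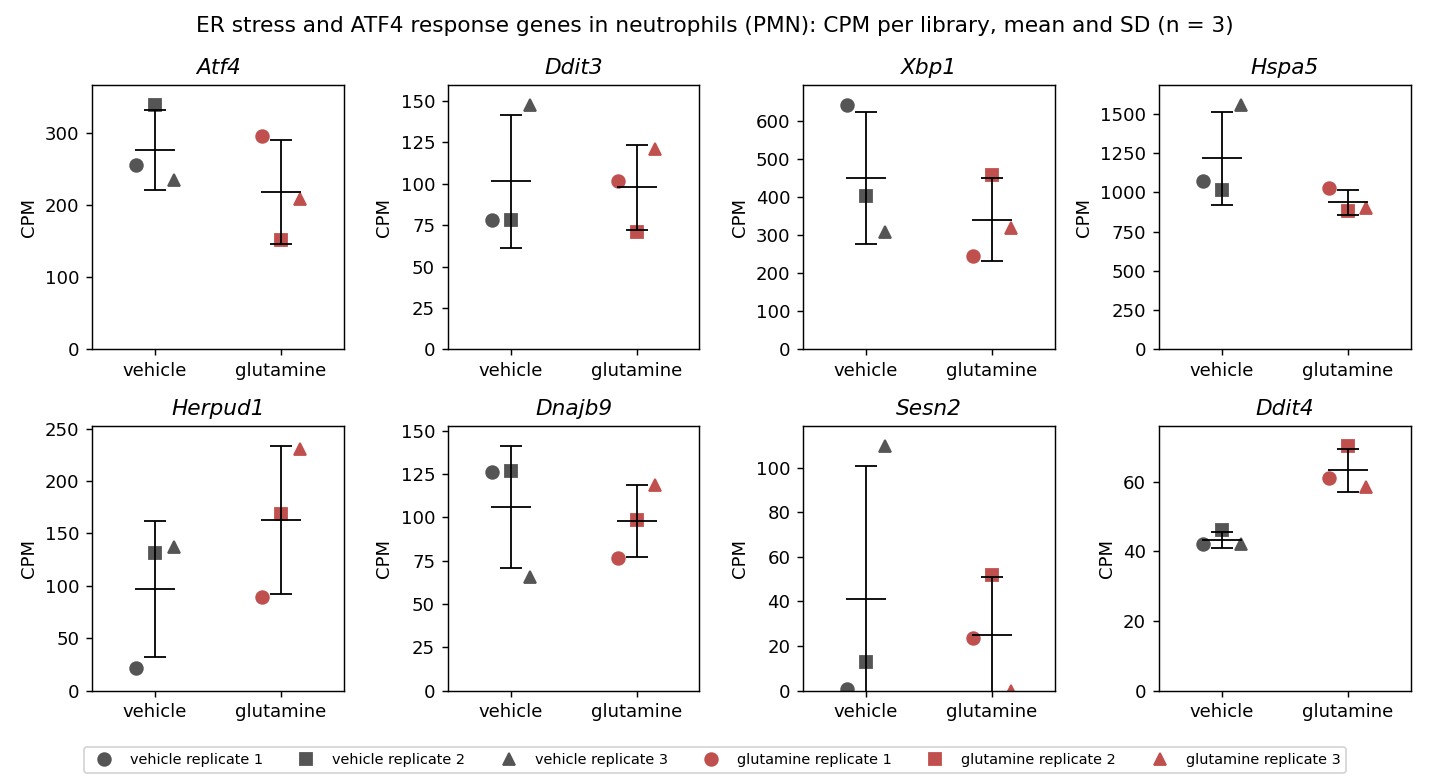
CPM of the 8 genes with counts in the 3 vehicle (grey) and 3 glutamine (red) libraries of PMN, each point a library, with the mean and SD as bars that are drawn down to 0 at most. Only Ddit4 has all glutamine libraries, from 58.4 CPM, above all vehicle libraries, up to 46.1 CPM.

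Per kilobase, Hspa5 led in vehicle PMN at 331 ± 81.4 CPM, followed by Xbp1 at 211 ± 81.2, Atf4 at 161 ± 32.2 and Ddit3 at 114 ± 45.2 CPM (SD, n = 3). Among these 4 genes each overlapped its neighbour in the order, and every Ddit3 library was above every Herpud1 library, with 87.5 as the lowest of Ddit3 and 70.4 as the highest of Herpud1. Herpud1 at 49.6 ± 33.4, Dnajb9 at 43.1 ± 14.3, Ddit4 at 24.7 ± 1.32 and Sesn2 at 11.8 ± 17.2 CPM per kilobase came next. Herpud1 overlapped Dnajb9 and Ddit4 overlapped Sesn2, while the lowest vehicle library of Dnajb9, at 26.6, was above the highest of Ddit4, at 26.2. In vehicle TECs the same quantity was led by Atf4, and Trib3 and Asns, both without counts in PMN, were measured in all 6 TEC libraries. The tables of the cell types were prepared separately, so these levels are given side by side with no test.

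Among the other genes of the pathway in PMN, the ER chaperones and folding enzymes were lower in 13 and higher in 3 of 16 tested genes, and their median was -0.64 on the log2 scale, with none at an unadjusted p under 0.05. The median was -0.34 without vehicle replicate 2, the library with Kdr at 619 CPM, and from -0.72 to -0.48 without each of the others. Manf, a secreted ER stress protein, was at 218, 99.0 and 126 CPM with vehicle and at 67.0, 78.8 and 110 CPM with glutamine. Its groups overlapped, with a log2 fold change of -0.79 (standard error 0.50) that lay between -1.02 and -0.44 when each library was left out. Hyou1 had a log2 fold change of -2.88 (standard error 1.92), and leaving out each library in turn gave -3.82 to -1.78. Its libraries ran from 0.91 to 45.9 CPM with vehicle and from 1.004 to 5.79 CPM with glutamine. The ATF4 targets of amino acid supply and tRNA charging split into 9 higher and 8 lower of 17 tested genes, with a median of 0.20 that turned to -0.16 without glutamine replicate 3 and to -0.067 without glutamine replicate 1. The median was 0.0063 without vehicle replicate 1 and 0.42 without vehicle replicate 2. Slc7a11 and Slc3a2 were abundant at 484 ± 123 and 576 ± 111 CPM in the vehicle and 680 ± 374 and 663 ± 118 CPM in the glutamine libraries (SD, n = 3). Psat1 had 402 counts in vehicle replicate 3 and 0 in the other libraries, and Phgdh had 13 counts in glutamine replicate 2 alone, so neither was tested. Edem1 was at 18.04, 13.04 and 29.3 CPM with vehicle and at 111, 79.6 and 154 CPM with glutamine. Every glutamine library was above every vehicle library, with a log2 fold change of 2.52 with a standard error of 0.72 (adjusted p = 0.955 in edgeR's quasi-likelihood test but 0.00572 in DESeq2's Wald test). It was the only 1 of the 11 tested degradation genes with an unadjusted p under 0.05. In the same list Edem2 and Selenos, named after their values were seen, were lower with glutamine without overlap, with log2 fold changes of -0.62 (standard error 0.74) and -0.66 (standard error 0.41). Ppp1r15a, at 694 ± 78.2 CPM in the vehicle and 1023 ± 425 CPM in the glutamine libraries, and Atf3, at 118 ± 73.9 and 214 ± 61.0 CPM (SD, n = 3), had log2 fold changes of 0.56 and 0.85 with standard errors of 0.33 and 0.54 and overlapping groups. Ppp1r15a was at 0.17 without glutamine replicate 3 and 0.74 without glutamine replicate 2, and Atf3 at 0.51 without vehicle replicate 1 and 1.47 without vehicle replicate 3.

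Set side by side, the log2 fold changes of Herpud1 were 1.47 in TECs and 0.75 in PMN, and those of Ddit4 were 0.20 and 0.55, all above 0. Atf4 had 0.39 in TECs and -0.34 in PMN, Hspa5 0.20 and -0.37, and Dnajb9 0.46 and -0.12. Every one of these values except that of Herpud1 in TECs was less than 2 standard errors from 0, and the difference between the cell types was not tested.

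**Figure D5:**
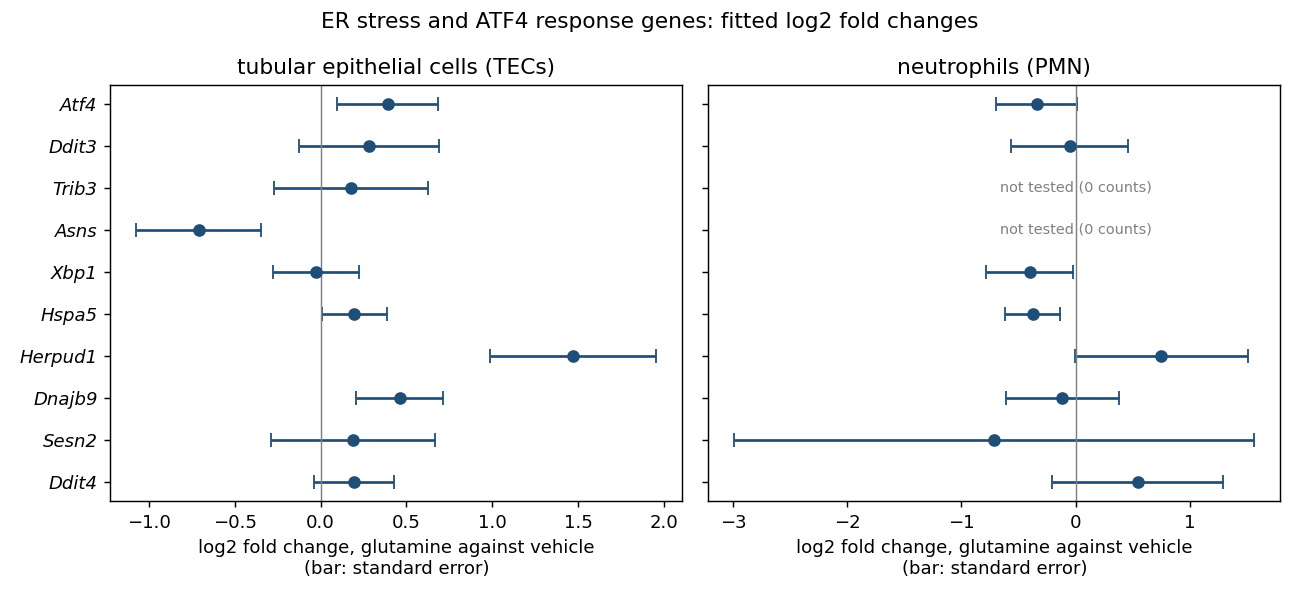
Log2 fold change of each gene, glutamine against vehicle, in TECs (left) and PMN (right), with the standard error as a bar and separate scales on the horizontal axes. Herpud1 in TECs, at 1.47, lies furthest above 0, and Sesn2 in PMN has the widest bar, a standard error of 2.28.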

How the data were processed

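RNA of sorted cells was reverse transcribed from poly(A) tails and sequenced as single-end reads of 50 bases, per the labels. For each gene symbol the authors deposited an estimated count without normalization, made with Salmon 1.0.0 after Trim Galore 0.6.4 on build mm10, per the submitters' processing notes; the annotation release is not given in the sources used here. These counts need not be whole and were rounded. A spreadsheet program had altered the PMN table: 3.2% of its cells held surplus points and 0.39% dates. Both kinds were decoded to numbers, and the table, planned as plain counts, was then used as estimated counts. Each PMN library has 2 columns, and what they stand for is not stated in the sources used here. They correlated at 0.992 to 0.994 against 0.651 to 0.721 between libraries, and were averaged into 1 replicate. All columns were used.

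TECs and PMN were fitted apart with edgeR 4.0.16 (R 4.3.3), using TMM, the default expression filter, the robust quasi-likelihood test and Benjamini-Hochberg adjustment over all tested genes, called below 0.05. The standard error is the log2 fold change divided by the root of F. Intervals for 0 counts cover counting error only, since PCR reads are not independent molecules. Alternatives were DESeq2 1.42.0, limma 3.58.1, other normalizations and filters, single PMN columns and leaving out each library. Counts of list genes in each direction under each alternative were added after seeing the data. The 10 genes and all lists were chosen with earlier results of these data known. Genes named are these 10, 23 pathway genes fixed by role, marker genes and relatives, and others named after their values were seen, as stated. Ubxn4, Lyz2 and Ms4a7 were also named after their values were seen. Positions and lengths came from GENCODE M21 on GRCm38 and promoters from RefSeq (GRCm38.p6), where all 10 genes matched; motifs were searched on both strands of the 250 bases before each start.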

Additional observations from a re-analysis of the deposited data

How the results depend on the processing

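None of the 10 genes was called in TECs or PMN under any alternative run. The count of all genes called in TECs, 0 in edgeR's quasi-likelihood test with 1901 at an unadjusted p under 0.05, was 246 with DESeq2 (184 higher and 62 lower), 398 without the expression filter (290 higher and 108 lower) and 0 with limma and the other settings. Leaving out each library in turn gave 0 to 38, with 38 without glutamine replicate 2 and 4 without vehicle replicate 5. In PMN the count of 0, with 337 at an unadjusted p under 0.05, became 309 with DESeq2 (167 higher and 142 lower) and stayed at 0 otherwise. The causes were not tested.

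Of the 10 genes in TECs, 8 stayed higher under each normalization and filter, and 9 were higher with limma or when the normalization left out predicted, Rik and sensory receptor genes, where Xbp1 turned to 0.021 in both. Scaling by library totals turned Eif2ak3 to -0.17, Atf6 to -0.093, Ppp1r15a to -0.13, Pdia4 to -0.13, Creld2 to -0.053 and Edem1 to -0.0028 in TECs. Without the filter Eif2ak3 was -0.023. In PMN Atf6 turned to -0.055 with DESeq2, -0.63 with limma, -0.043 with DESeq2's size factors, -0.010 without the filter and -0.018 with at least 10 counts in every library. With limma Atf5 was -1.44, Cebpg 2.61 and Hsp90b1 0.076. The PMN amino acid list counted 14 genes higher with DESeq2 or without the filter and 3 with at least 10 counts, where 24 and 5 of its genes were tested. DESeq2 called 1 of those 24, where it called 309 of all 11035 genes tested in PMN. Leaving out each library in turn turned these log2 fold changes in TECs, with ranges of -0.19 to 0.49 for Trib3, -0.26 to 0.13 for Xbp1, -0.66 to 0.54 for Sesn2, -0.019 to 0.40 for Ddit4, -0.18 to 0.19 for Eif2ak3, -0.0095 to 0.19 for Atf6, -0.072 to 0.11 for Ppp1r15a, -0.35 to 0.029 for Atf3, -0.35 to 0.087 for Cebpb, -0.071 to 0.19 for Pdia4, -1.02 to 0.053 for Sdf2l1, -0.19 to 0.011 for Manf, -0.028 to 0.38 for Edem1, and these in PMN, with ranges of -0.24 to 0.32 for Ddit3, -0.38 to 0.023 for Dnajb9, -1.83 to 1.91 for Sesn2, -6.26 to 4.999 for Ern1, -0.48 to 0.54 for Atf6, -6.19 to 0.69 for Atf5, -0.041 to 0.81 for Cebpb, -3.52 to 10.64 for Cebpg, -0.078 to 0.72 for Slc7a11, -0.61 to 0.33 for Hsp90b1, -2.52 to 0.016 for Creld2, -0.26 to 0.54 for Sel1l. No paired analysis was possible because vehicle and glutamine TEC libraries have just 1 replicate number in common and the PMN labels carry none, their numbers being names given here. In TECs, Trib3 had 46 to 114 counts per library, the fewest of the 10 genes in sum.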

Other observations

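Relatives of the 10 genes by sequence were not described above. In TECs 11 such genes were tested, of which 5 were higher and 6 lower with glutamine, with a median of -0.16 on the log2 scale and none at an unadjusted p under 0.05. Herpud2 was at 17.9, 28.9 and 26.7 CPM with vehicle and at 19.0, 15.5 and 20.8 CPM with glutamine, a log2 fold change of -0.41 (standard error 0.28), against 1.47 for Herpud1. Creb3l1, which encodes an ER-bound transcription factor related to ATF6, was at 5.11 to 7.89 CPM with vehicle and at 1.92 to 4.02 CPM with glutamine without overlap, a log2 fold change of -1.02 with a standard error of 0.48 (adjusted p = 0.401 in edgeR's quasi-likelihood test).

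In PMN, Trib1 was at 476, 423 and 292 CPM with vehicle and at 704, 530 and 385 CPM with glutamine, while Trib2 and Trib3 had 0 counts in every library. Glutamine replicates 1 and 2 were above every vehicle library, and the log2 fold change of Trib1 was 0.44 (standard error 0.33). Sesn3 had 634, 26 and 394 counts with vehicle and 0, 2 and 0 counts with glutamine, without overlap, and an adjusted p of 0.99996 in edgeR's quasi-likelihood test. Pmaip1, a pro-apoptotic CHOP target, was at 81.6, 40.2 and 91.4 CPM with vehicle and at 252, 93.5 and 124 CPM with glutamine, without overlap (log2 fold change 1.14, standard error 0.58). These genes were chosen after their values were seen.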
